A study of Mus musculus with 4 samples.

Results

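The 34 genes described here encode the contractile apparatus of smooth muscle and its controls: actins, myosin subunits, thin-filament proteins, intermediate filaments, anchorage proteins, channels, phosphatase subunits and transcription factors. They were taken by symbol from a fixed list, chosen with earlier results of these data known, and are 34 of the 32285 genes counted. All 34 had UMIs in each of the 4 libraries. A UMI (unique molecular identifier) is a tag that lets each captured transcript be counted once.

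Single-cell RNA sequencing of dissociated mouse ovaries was compared between 4 treatments, and the labels state no strain. The control group received PBS or saline. The doxorubicin group received 3 mg/kg of doxorubicin, a DNA-damaging anthracycline used in chemotherapy. The AMH group received 0.75 mg/kg of recombinant human anti-Müllerian hormone, a hormone made by granulosa cells of growing follicles. The doxorubicin+AMH group received both. The mice were prepubertal, of postnatal day 25, doxorubicin was given in 2 weekly doses, and the tissue was taken 4 hours after the last one. Each library pooled 1 ovary from each of 5 mice, which leaves differences among animals unmeasured. With 1 library per group there is no test between treatments, and no p-value is given. Every interval in parentheses after a level, fold or share is a 95% interval for counting error only. After a median over genes, the parentheses hold the medians of the genes' own limits, which are not a 95% interval of that median.

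The libraries held 7141 to 9478 cells and 138647495 to 178279122 UMIs, and 28440 of 33639 cells passed the filters. Any pair of libraries shared at most 0.28% of its cell barcodes. Cells were grouped into 32 clusters without using the 34 genes, and clusters were named "X-like" from marker genes outside the list. Levels are UMIs of a gene scaled to a total of 1e+06 UMIs (CPM), summed over the cells of a class in a library. When 4 levels follow each other, they belong to the control, doxorubicin, doxorubicin+AMH and AMH libraries, in that order. Levels of different genes are not compared with each other.

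In smooth muscle, calcium that enters through channels in the cell membrane activates myosin light chain kinase, which phosphorylates the regulatory light chain of myosin so that myosin pulls on actin. Myosin phosphatase reverses this. Serum response factor, with its coactivator myocardin, binds a DNA element called the CArG box near many genes of this apparatus. In the ovary, smooth muscle is known in vessel walls, around growing follicles in the outer theca and in the stroma. The oviduct and its ligaments, which may be left on a dissected ovary, carry muscle of their own.

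The CArG box is the sequence through which this pathway is known to act, so the members that hold one near their start are shown first. RefSeq promoters on GRCm38.p6, the assembly of mm10, run from 250 bases before to 50 bases after a start and were found for 30 of the 34 genes. A CArG box, searched by its full consensus on both strands, was present in 7 of the 30 (23.3%). It was present in 488 of all 27025 genes of the same table (1.81%). The 40 bases around each box are written 5′ to 3′ on the gene's own strand, with the box in capitals, and all lie upstream of the RefSeq start used. The GENCODE M21 locus of Myl6 reaches further upstream, so that its window lies inside that locus, and the other windows lie outside theirs. Srf, the gene of serum response factor itself, holds a pair of boxes whose windows overlap.
Srf, chr17:46556220-46556259, minus strand: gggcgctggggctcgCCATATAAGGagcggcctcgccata
Srf, chr17:46556200-46556239, minus strand: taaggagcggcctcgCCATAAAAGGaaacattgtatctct
Myl9, chr2:156775288-156775327, plus strand: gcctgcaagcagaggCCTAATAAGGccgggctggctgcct
Myl6, chr10:128493035-128493074, minus strand: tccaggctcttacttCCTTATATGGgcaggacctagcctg
Cnn2, chr10:79988529-79988568, plus strand: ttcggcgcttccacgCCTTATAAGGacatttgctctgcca
Vcl, chr14:20929156-20929195, plus strand: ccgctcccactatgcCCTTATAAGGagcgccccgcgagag
Fbxl22, chr9:66514791-66514830, minus strand: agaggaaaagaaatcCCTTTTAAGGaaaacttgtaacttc
Dmd, chrX:82948757-82948796, plus strand: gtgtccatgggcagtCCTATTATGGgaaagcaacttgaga
A match is a description of these letters and not of binding. The 7 genes are of different kinds by their levels in the cells described next: Myl9, Fbxl22 and Dmd were highest in muscle by at least 10-fold, while Srf was low in every class.

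Most of the 34 genes had their highest level in a pair of smooth muscle-like clusters and 1 pericyte-like cluster. The larger cluster, called the Ednrb cluster here, held 2564 cells, and its 5 genes of highest fold over other cells were Acta2, Myh11, Actg2, Tagln and Ednrb, the last an endothelin receptor. It met 7 of 10 smooth muscle markers that are not among the 34 genes, and it also met the stroma list. A gate on each cell's own markers placed 401 of its 2564 cells with muscle and 1681 with stroma. The smaller Pcp4 cluster held 448 cells, met 9 of 10 markers, and was led by Des, Synpo2, Postn, Pcp4 and Cnn1. The gate placed 253 of the 448 with muscle and 133 with stroma. The pericyte-like cluster held 347 cells and met 10 of 10 pericyte markers.

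The muscle clusters gave more of the members' UMIs than their share of cells. The Ednrb cluster was 9.02% of cells and gave 33.8% of all UMIs of the 34 genes, and the Pcp4 cluster was 1.58% of cells and gave 8.73%. Pericyte-like cells were 1.22% of cells and gave 2.09%. Stroma-like cells, at 32.5% of cells, gave 19.7%, granulosa-like cells, at 27.7%, gave 18.5%, and theca-like cells, at 10.8%, gave 6.91%. A share of cells is not a share of all UMIs, since depth differs by class. Median UMIs per cell were 7730 to 11044 in stroma-like and 20670 to 26685 in granulosa-like cells. Across 13 classes, each holding 10 or more cells per library, 30 of the 34 genes had their highest mean level in 1 of the 3 clusters: 22 in the Pcp4 cluster, 6 in the Ednrb cluster and 2 in pericyte-like cells. The exceptions were Tpm4, a tropomyosin of many cell types, highest in lymphatic endothelial-like cells at a mean of 652 CPM, and Vim, the mesenchymal filament vimentin, highest in blood endothelial-like cells at 1781 CPM. Tln1, the integrin-linking talin, was highest in macrophage-like cells at 278 CPM, close to the 275 CPM of the Pcp4 cluster, and Srf in B lymphocyte-like cells at 15.9 CPM. For 13 of the 34 genes, the ranges over libraries of the highest and the next class overlapped, so the order of those classes is not separated by the libraries' spread.

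**Figure D1:**
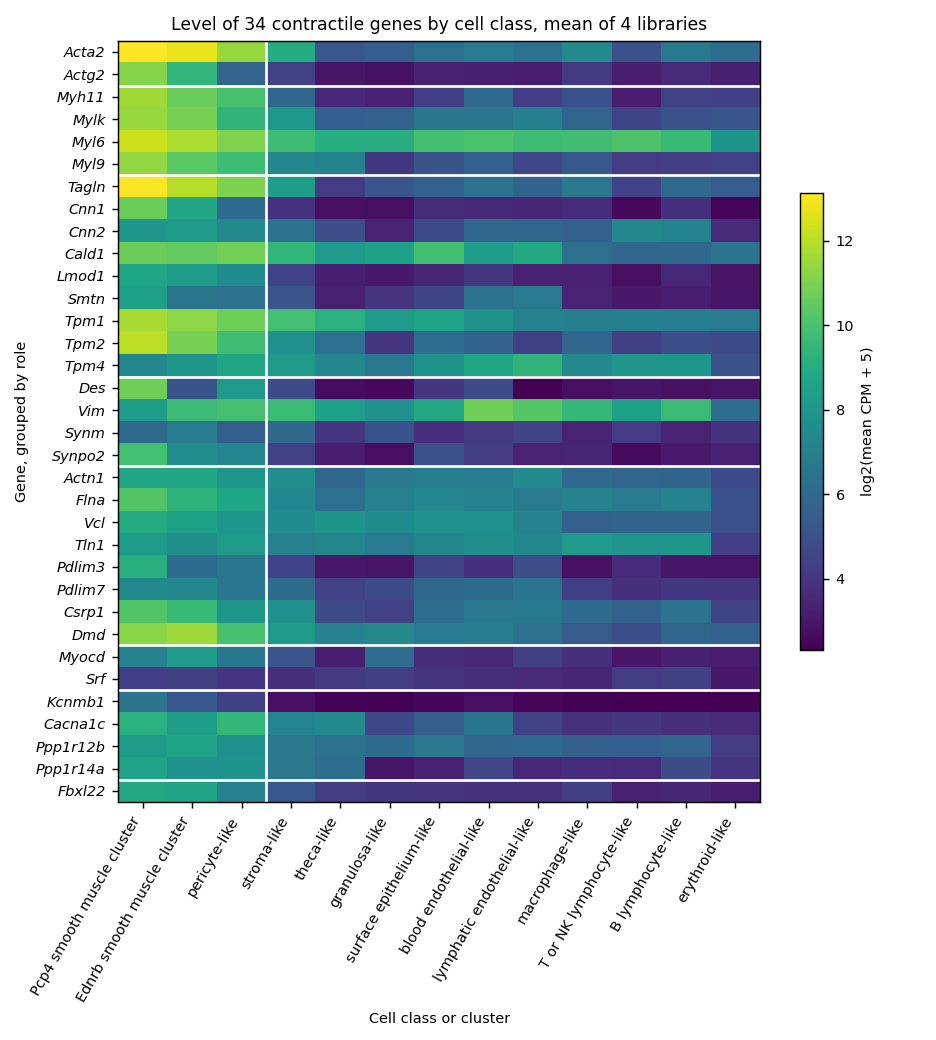
Colour gives log2(mean CPM over the 4 libraries + 5) of each of the 34 genes, in rows by role, in each cell class or cluster, in columns. The Ednrb, Pcp4 and pericyte-like columns hold the highest value of 30 genes, and Tpm4, Vim, Tln1 and Srf have theirs elsewhere.

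Restriction to muscle was set against the highest class outside the 3 clusters. For 15 genes the highest of the 3 clusters exceeded it by at least 10-fold, for 12 by 2-fold to 10-fold and for 7 by less than 2-fold. Calponin 1, Cnn1, an actin-binding inhibitor of myosin's ATPase, stood 168-fold over stroma-like cells. Smooth muscle gamma-actin, Actg2, stood 139-fold over them, desmin, Des, 72.5-fold over blood endothelial-like cells and the myosin heavy chain Myh11 52.2-fold over the same class. Kcnmb1, the accessory subunit of the calcium-activated potassium channel, stood 49-fold over stroma-like cells, where it reached only 1.43 to 2.02 CPM. At the other end were Cnn2 at 1.76-fold, Synm at 1.83-fold, and Cald1, Tln1, Srf, Tpm4 and Vim at 2-fold or less.

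Of the contractile actins, Acta2 (ENSMUSG00000035783, chr19:34241090-34255590 on GRCm38, minus strand), smooth muscle alpha-actin, was at 7315 CPM in the control library, 7386 in the doxorubicin, 7430.4 in the doxorubicin+AMH and 6269.8 in the AMH library in the Ednrb cluster. In the Pcp4 cluster it was at 7148, 8748, 12503 and 7431 CPM, and in pericyte-like cells at 3381, 3176, 2047 and 2514 CPM. Stroma-like cells held 412 to 663 CPM, theca-like cells 17.8 to 48.2 CPM and T or NK lymphocyte-like cells 15.9 to 42.9 CPM, the last given as a background level for cells that should lack the gene. Both muscle clusters lay above pericyte-like cells, and pericyte-like above stroma-like cells, in all 4 libraries. Actg2, the actin of visceral muscle, was at 772, 712, 681 and 598 CPM in the Ednrb cluster, 1568, 3203, 3255 and 1108 CPM in the Pcp4 cluster and 73.2, 14.5, 39.3 and 86.4 CPM in pericyte-like cells. Thus Actg2 was low in pericyte-like cells in every library.

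Shares of cells told the same order once depth was made equal. When each cell was thinned to 2000 UMIs, Acta2 was found in 96.4% to 97.8% of the Ednrb cluster's cells and in 100% of the Pcp4 cluster's, against 53.0% to 69.0% of pericyte-like cells. In T or NK lymphocyte-like cells, where the gene should be absent, the share was 3.2% to 8.3%, read as background. Median depths were 7778 to 10701 UMIs per cell in the Ednrb cluster, 7092 to 10166 in pericyte-like and 5035 to 5856 in lymphocyte-like cells, and at most 31, 4 and 5 cells per library were too shallow to thin. Without thinning the shares for Acta2 were 96.2% to 98.3%, 70.0% to 87.7% and 12.1% to 27.7%. Desmin, thinned in the same way, was found in 2.2% to 3.6% of the Ednrb cluster, in 67.9% to 92.2% of the Pcp4 cluster and in 31.2% to 44.9% of pericyte-like cells. Without thinning these shares were 7.45% to 10.8%, 93.4% to 100% and 65.4% to 82.2%. No thinned lymphocyte-like cell held a desmin UMI, with exact upper limits of 5.78% to 14.2% per library, so the share in the Ednrb cluster is not read as expression.

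The myosin genes followed the actins. Myh11, the heavy chain of smooth muscle myosin, was at 1902, 1612, 1561 and 1398 CPM in the Ednrb cluster and at 3075, 2748, 3459 and 3119 CPM in the Pcp4 cluster. In pericyte-like cells it was at 1326, 1239.7, 629 and 821 CPM, so that the libraries given AMH lay below both others. Mylk, the kinase that starts contraction, was at 2079, 2093, 1816 and 1629 CPM in the Ednrb and 2603, 2609, 3354 and 2736 CPM in the Pcp4 cluster. Myl9, the regulatory light chain it phosphorylates, was at 1402, 1402, 1369 and 1129 CPM and 2141, 2520.4, 3125 and 2787 CPM, with 127 to 180.0 CPM in stroma-like cells. Myl6, the essential light chain shared with non-muscle myosin, was at 3188 to 3859.6 CPM in the Ednrb cluster and still at 505 to 559 CPM in granulosa-like cells.

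Among the thin-filament proteins, Tagln (transgelin, an actin cross-linker) was at 3970.1, 4069.6, 4283 and 3461 CPM in the Ednrb cluster and 6477, 10974, 11228 and 5772 CPM in the Pcp4 cluster. Cnn1 was at 517, 406, 438 and 405 CPM and 1516, 1824, 2022 and 1330.3 CPM, and pericyte-like cells held 36.5 to 97 CPM. The Pcp4 cluster lay above the Ednrb cluster in every library for both genes. Lmod1 (leiomodin, which nucleates actin filaments) was at 266 to 345 CPM in the Ednrb cluster and 337 to 491 CPM in the Pcp4 cluster. Smtn (smoothelin) was at 80.6 to 97.8 CPM in the Ednrb and 224 to 473 CPM in the Pcp4 cluster, and Tpm2, a muscle tropomyosin, at 1526 to 2117 CPM and 3048 to 6026 CPM. Cnn2, a calponin of many tissues, was at 251 to 294 CPM and 196 to 283 CPM, and Tpm4 at 218 to 278 CPM and 135 to 205 CPM. Tpm1 and Cald1 (caldesmon) were also high outside muscle, with 892 to 1029.5 CPM and 615 to 786 CPM in stroma-like cells.

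The intermediate filament genes split the muscle clusters most. Desmin was at 44.8, 18, 32 and 26.7 CPM in the Ednrb cluster and at 1542, 1934, 2449 and 958 CPM in the Pcp4 cluster. Pericyte-like cells lay between them, at 329.8, 313, 269 and 202 CPM. Vim ran the other way, at 701, 851, 1014 and 686 CPM in the Ednrb cluster and 243, 519, 229 and 241 CPM in the Pcp4 cluster. Synm (synemin, a filament partner) was at 115, 94.7, 108 and 108 CPM and 67.2, 74.7, 78.3 and 25.6 CPM, and Synpo2, an actin-bundling protein of the Z-disc and dense bodies, at 224, 188, 170.4 and 185 CPM and 1223, 565, 843 and 1171 CPM.

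The anchorage proteins included both restricted and widespread members. Pdlim3, a PDZ and LIM protein that binds alpha-actinin, was at 42.9 to 81.9 CPM in the Ednrb cluster and 346 to 751 CPM in the Pcp4 cluster. Dmd, dystrophin, which ties actin to the membrane, was at 3427, 2944, 2727 and 3021 CPM in the Ednrb and 2746, 1599.7, 1942 and 3041 CPM in the Pcp4 cluster, with 249 to 325 CPM in stroma-like cells. Flna (filamin A) was at 1061 to 1307 CPM in the Pcp4 cluster and Csrp1, a LIM protein, at 874 to 1379 CPM. Actn1 (alpha-actinin) was at 391 to 454 CPM in the Ednrb and 366 to 468 CPM in the Pcp4 cluster, Tln1 at 174 to 244 CPM and 263 to 295 CPM, and Pdlim7, another PDZ and LIM protein, at 141 to 176 CPM and 142 to 204 CPM. The ranges of Actn1 and Pdlim7 overlapped between the clusters, and Tln1 (talin) was higher in the Pcp4 cluster in every library. Vcl (vinculin) was at 223 to 246 CPM in theca-like cells against 316 to 403 CPM in the Ednrb cluster. Actn1 overlaps another counted gene on its own strand, and 15 of the 34 genes overlap one on the opposite strand. Whether counting used strand is not given in the sources used here, so their reads cannot be fully assigned.

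Channels and phosphatase subunits were present in all 3 clusters. Cacna1c, the pore of the L-type calcium channel, was at 575 to 804 CPM in pericyte-like cells, 528 to 665 CPM in the Pcp4 cluster and 289.6 to 365 CPM in the Ednrb cluster. Kcnmb1 was at 34.9, 33.3, 33.5 and 29.4 CPM in the Ednrb and 94.7, 92.4, 83.6 and 66 CPM in the Pcp4 cluster. Ppp1r12b, which targets myosin phosphatase to myosin, was at 314 to 411 CPM in the Ednrb cluster. Ppp1r14a, an inhibitor of that phosphatase, was at 182 to 245 CPM there and at 303 to 461 CPM in the Pcp4 cluster. Fbxl22, an F-box protein of the muscle Z-disc, was at 351 to 418 CPM and 366 to 622 CPM in these clusters.

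Of the transcriptional controls, Myocd, myocardin, was highest in the Ednrb cluster at 315, 303, 340.2 and 239 CPM, and was lower in the Pcp4 cluster at 162, 56.9, 185 and 132 CPM. In pericyte-like cells it was at 107, 83.8, 58.9 and 114 CPM. Outside these 3 clusters it was highest in granulosa-like cells, at 58.9, 50.5, 82.8 and 77.7 CPM, against a mean of 2.89 CPM in T or NK lymphocyte-like cells. After thinning, 8.5% to 13.5% of granulosa-like cells held a Myocd UMI, 27.9% to 39.1% of the Ednrb cluster and at most 1.8% of the lymphocyte-like cells. Without thinning, Ednrb cluster shares were 61.2% to 73.3%. Srf stayed at 13.6 to 16.7 CPM in the Ednrb cluster, 13.9 to 15.5 CPM in granulosa-like and 8.7 to 9.46 CPM in stroma-like cells, under the 20 CPM minimum used for ratios in each class.

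**Figure D2:**
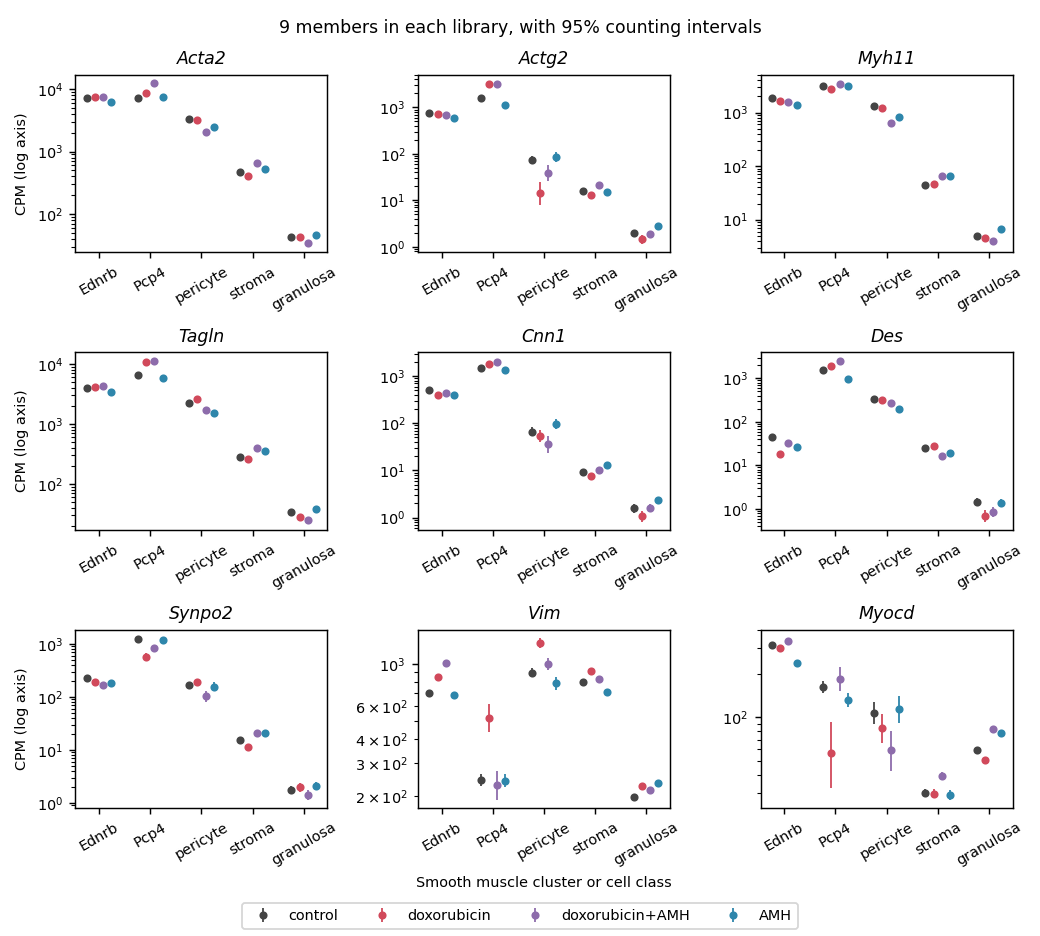
Level (CPM, log axis) of 9 members, with 1 point per library coloured by treatment and bars for the 95% counting interval, in the Ednrb cluster, the Pcp4 cluster, pericyte-like, stroma-like and granulosa-like cells. Des separates the clusters at every treatment, with at most 44.8 CPM in the Ednrb cluster and at least 958 CPM in the Pcp4 cluster.

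The smooth muscle clusters were compared within each library, where they share treatment and preparation. Of the 34 genes, 21 were higher in the Pcp4 than in the Ednrb cluster in all 4 libraries, 5 in 3 libraries, 4 in 1 library and 4 in none. Des was 34.4-fold, 107-fold, 76.5-fold and 35.9-fold higher in the Pcp4 cluster in the 4 libraries. Pdlim3 was 5.66-fold to 17.5-fold, Synpo2 3.01-fold to 6.34-fold and Cnn1 2.93-fold to 4.62-fold higher. Actg2 was 2.03-fold, 4.5-fold, 4.78-fold and 1.85-fold higher. The genes lower in the Pcp4 cluster in every library were Myocd, Vim, Synm and Tpm4. Myocd was at 0.51, 0.19, 0.54 and 0.55 times its level in the Ednrb cluster. Several of these genes lead their cluster's list, so the contrast describes the clusters and is not a test of them.

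The amount of each kind of muscle differed between libraries, and so did oviduct epithelium. The Ednrb cluster was 8.71%, 8.44%, 10.5% and 8.56% of the cells kept. The Pcp4 cluster held 197, 18, 52 and 181 cells, which is 2.48% (2.15 to 2.84), 0.30% (0.18 to 0.47), 0.79% (0.59 to 1.04) and 2.29% (1.97 to 2.65). Both doxorubicin-treated libraries had a smaller share of it than both others. Oviduct epithelium-like cells, the lining of the tube beside the ovary, numbered 126, 1, 43 and 224, so they were also fewest in the same libraries. Treatment and the amount of oviduct dissected cannot be told apart here. As part of all smooth muscle-like cells, the Pcp4 cluster was 22.1%, 3.41%, 7.06% and 21.1%.

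**Figure D3:**
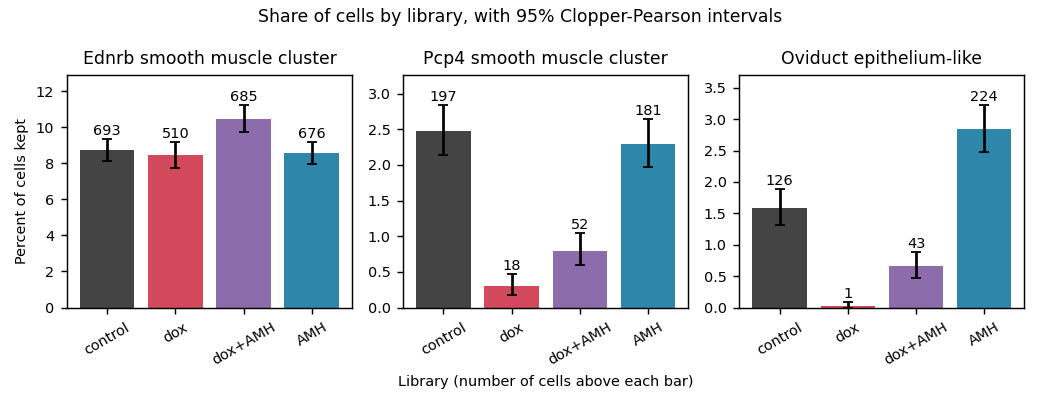
Share of the cells kept (percent, with 95% Clopper-Pearson intervals) in the Ednrb cluster, the Pcp4 cluster and oviduct epithelium-like cells, by library. The Ednrb cluster lies between 8.44% and 10.5% in all libraries, while the Pcp4 cluster is 0.30% in the doxorubicin and 0.79% in the doxorubicin+AMH library against at least 2.29% in the others.

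Over smooth muscle-like cells as a whole, Des and Synpo2 had the lowest ratios of doxorubicin to control. Des over both clusters was at 409.6, 88.4, 167 and 233 CPM, with the libraries in the same order as by the share of the Pcp4 cluster. That share of smooth muscle-like cells was 22.1% in the control and 21.1% in the AMH library, so Des differed more than the share there. The cause of the Des differences was not tested. Its doxorubicin to control ratio there was 0.216 (0.199 to 0.234), and Synpo2 stood at 0.432 (0.408 to 0.457). These were the only members at least 2-fold lower in that comparison, beside 0.754% of all genes. Within the clusters the same Des ratio was 0.402 (0.328 to 0.491) in the Ednrb cluster and 1.25 (1.14 to 1.37) in the Pcp4 cluster. Desmin in the Ednrb cluster is not read as expression, so these directions are not compared. Over both clusters, 10 of 33 members were lower in both doxorubicin libraries than in both others, beside 20.5% of genes. Another 5, Acta2 among them, were higher in both, beside 21%, and 11 were lower in both AMH libraries, beside 29.7%. Over all cells kept, the summed level of the 34 genes was 6911, 6074, 6829 and 6407 CPM. The treatments are compared within each cluster.

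In the Ednrb cluster the contractile genes were lower with AMH than in the control. Of the 33 genes that passed the 20 CPM minimum, 33 were below the control, beside 67.1% of all genes. Srf alone did not pass. The median log2 ratio of the members was -0.31 (-0.38 to -0.25), beside -0.064 for all genes (ratios use a pseudocount of 5 CPM, and the interval is the median of the members' own limits). Myh11 was at 0.735 (0.718 to 0.753) times its control level, Tpm2 at 0.721 (0.705 to 0.737), Myocd at 0.758 (0.716 to 0.802) and Acta2 at 0.857 (0.847 to 0.867). Tln1, at 0.713 (0.667 to 0.762), and Pdlim3, at 0.667 (0.593 to 0.75), moved further. Des was lowest at 0.596 (0.504 to 0.702), but desmin in this cluster is not read as expression. Vim, at 0.98 (0.945 to 1.02), was nearest to its control level.

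The same comparison on the doxorubicin background was smaller. Of 33 members, 23 were lower in doxorubicin+AMH than in doxorubicin, beside 60.7% of all genes. The median log2 ratio was -0.064 (-0.14 to -0.0077), beside -0.037 for all genes. Pdlim3 was at 0.544 (0.478 to 0.618), Vcl at 0.816 (0.775 to 0.859) and Mylk at 0.868 (0.849 to 0.887), while Acta2 was at 1.01 (0.995 to 1.02). Des, which is not read as expressed in this cluster, was at 1.78 (1.45 to 2.2). Across both AMH comparisons, which share no library, 23 of 33 members were below in both, beside 46.4% of genes. For 21 of 33 members both AMH libraries lay below both others, beside 34.8% of genes. These 21 included Actg2, Myh11, Mylk, Myl9, Lmod1, Cacna1c and Ppp1r14a.

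The doxorubicin comparisons of the same cluster had medians of opposite sign with and without AMH. Against the control, 24 of 33 members were below, beside 52% of genes, with a median log2 ratio of -0.077 (-0.15 to -0.0023). Against AMH, 28 of 33 members of the doxorubicin+AMH library were above, beside 55.7% of genes, with a median of 0.15 (0.048 to 0.21). The median over all genes was -0.0057 and 0.020. Des alone was at least 2-fold lower in doxorubicin against control, beside 0.0155% of genes, and no member was 2-fold higher, beside 0% of genes. Desmin in this cluster is not read as expression, so the call on Des is not read as a result. Acta2, Tagln, Cnn2 and Vim were higher in both doxorubicin libraries than in both others, beside 17.9% of genes. Vim was at 1.21 (1.17 to 1.26) against control and 1.48 (1.43 to 1.53) against AMH. Dmd alone was lower in both doxorubicin libraries than in both others, at 0.859 (0.844 to 0.874) and 0.903 (0.887 to 0.918), beside 15% of genes.

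By role, the AMH to control medians in the Ednrb cluster ran from -0.18 for the 4 intermediate filament genes to -0.39 for Myocd. The 4 myosin genes were at -0.33, the 9 thin-filament genes at -0.26, the 8 anchorage genes at -0.32 and the 4 channel and phosphatase genes at -0.33. No role stood above the control. All 9 thin-filament, all 4 myosin and both actin genes were higher in doxorubicin+AMH than in AMH, with medians of 0.20, 0.17 and 0.22, beside 55.7% of all genes above 0. The 8 anchorage genes were split, 4 above and 4 below, at a median of 0.0038, and of the 4 intermediate filament genes 3 were above and 1 below, at 0.12. The AMH library was the lowest of the 4 for 26 of 33 members, beside 38.7% of genes.

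Other values moved with the AMH library in this cluster. The 10 smooth muscle markers outside the list summed to 1080.4, 1026, 944 and 888 CPM, and 8 of them were lower in AMH than in the control. One of them, Susd5, had no UMI in any library of this cluster. Stroma markers summed to 2341, 2603, 2285 and 2229 CPM, granulosa markers to 342, 353, 500.5 and 561 CPM and erythroid markers to 19.3, 28.3, 39.9 and 190.2 CPM, and the sums of granulosa and erythroid markers were higher in the AMH than in the control library. Median UMIs per cell were 8747, 10701, 9582 and 7778. Their part in the lower contractile levels was not tested.

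**Figure D4:**
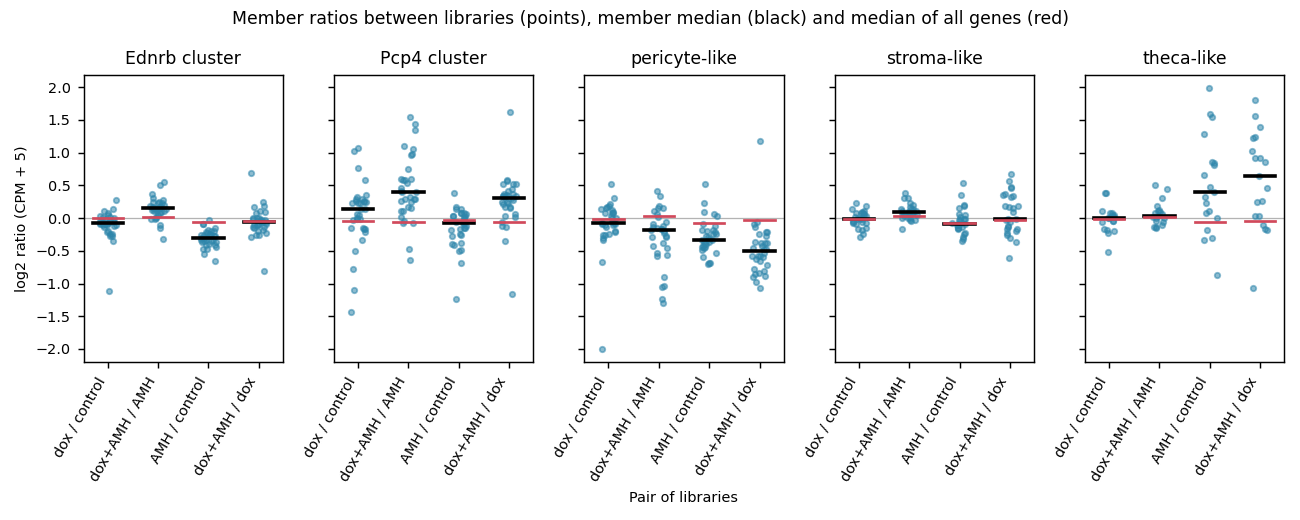
Log2 ratio of each member that passed 20 CPM (points) in the 4 comparisons of treatments, with black lines for the member median and red lines for the median of all genes, in the Ednrb cluster, the Pcp4 cluster, pericyte-like, theca-like and stroma-like cells. All 33 members of the Ednrb cluster lie below 0 in AMH against control, and Vim and Myl9 lie above 1 in theca-like cells in both AMH comparisons. The theca-like member medians are drawn but not read as results.

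In AMH against control in the Ednrb cluster, 4 other gene lists had medians nearer 0 than the members, and the list of contraction receptors had one further from 0. In the Ednrb cluster, 17 of 20 focal adhesion, dense plaque and caveola genes that passed were below, with a median of -0.24, and 23 of 27 genes of contraction control were below, with a median of -0.12. Of 13 contraction receptors only 3 passed, and all 3 were below, with a median of -0.43. Of all genes, 67.1% were below in this comparison and 60.7% in doxorubicin+AMH against doxorubicin. In doxorubicin+AMH against doxorubicin, 2 of these 3 were below, at a median of -0.19, and for the focal adhesion and contraction control lists the counts were 18 of 20, at a median of -0.071, and 19 of 27, at -0.077. Of 10 SRF cofactors and repressors that passed, 8 were below the control with AMH, at a median of -0.086, and of 16 immediate early genes 12 were, at -0.056, so that several of these counts were near the share of all genes. Gucy1b1 and Gucy1a1, the subunits of the nitric oxide receptor guanylate cyclase that relaxes smooth muscle, were among the lowest of these lists with AMH, at 27.3, 29.9, 16.9 and 16.8 CPM and 99.1, 92.9, 61.3 and 63.6 CPM. Kcnma1, the pore of the channel that Kcnmb1 modulates, was among the highest with AMH, at 90.3, 76, 92.1 and 110.0 CPM. With doxorubicin, the calcium channel gene Cacna1d was lower, at 42.5, 32.1, 26.9 and 39.3 CPM, and the endothelin receptor gene Ednra higher, at 107, 125, 109 and 97.5 CPM.

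In the Pcp4 cluster the doxorubicin libraries held higher levels of many contractile genes, over few cells. For 16 of 33 members both doxorubicin libraries lay above both others, beside 18.5% of genes. Of 33 members, 28 were higher in doxorubicin+AMH than in AMH, beside 44.5% of genes, with a median log2 ratio of 0.41 (0.22 to 0.51) against -0.064 for all genes. In doxorubicin against control, 20 of 33 were above, beside 47.3%, with a median of 0.14 (-0.097 to 0.34) against -0.039. Both ratios were above 0 for 19 of 33 members, beside 26.1% of genes. The doxorubicin library gave 18 cells to this cluster and the doxorubicin+AMH library 52, so these values rest on few cells.

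Actin and filament genes were among the larger differences. Actg2 stood at 2.04 (1.9 to 2.2) times its control level in doxorubicin and 2.94 (2.77 to 3.12) times its AMH level in doxorubicin+AMH. Des was at 1.25 (1.14 to 1.37) and 2.56 (2.39 to 2.73), and Tagln at 1.69 (1.63 to 1.76) and 1.95 (1.89 to 2). Pdlim3, Smtn and Synm were also at least 2-fold higher in doxorubicin+AMH against AMH, so that 5 members were, beside 2.29% of genes. In doxorubicin against control, Actg2 and Vim were 2-fold higher, beside 3.11% of genes, and Myocd and Synpo2 2-fold lower, beside 5.93%. The count of lower members was near the share of all genes. Dmd was lower in both, at 0.582 (0.528 to 0.641) and 0.639 (0.599 to 0.681), and Synpo2 at 0.462 (0.392 to 0.542) and 0.72 (0.652 to 0.793). The doxorubicin+AMH library was the highest of the 4 for 25 of 33 members, beside 22.9% of genes.

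The AMH to control ratios of the Pcp4 cluster lay near 0. The median log2 ratio was -0.070 (-0.19 to 0.0092), beside -0.026 for all genes, with 12 members above and 21 below, beside 54.3% of genes below. Synm alone was at least 2-fold lower, at 0.381 (0.282 to 0.508), beside 0.716% of genes, and Des was at 0.621 (0.591 to 0.653). In doxorubicin+AMH against doxorubicin the median was 0.31 (0.058 to 0.55), and 28 of 33 members were above, beside 47.3% of genes. Of the 33 members only Myocd was 2-fold higher there, beside 3.94% of genes, and only Vim 2-fold lower, beside 6.27%. Neither count exceeded the share of all genes.

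The Pcp4 cluster of the doxorubicin+AMH library also stood apart in genes that mark position along the reproductive tract. Pcp4, a calmodulin-binding peptide gene, was at 103, 53.3, 1382 and 115 CPM. Hoxa10, a Hox gene of the uterine part of the Müllerian duct, was at 2.14, 3.55, 94.3 and 2 CPM. Hoxa7 was at 104, 35.5, 58.7 and 122 CPM, higher in the libraries without doxorubicin. The higher contractile levels of the doxorubicin+AMH library therefore went with a different Hox pattern, and whether the same muscle was sampled in each library was not tested. The 10 muscle markers outside the list, Pcp4 among them, summed to 1673, 1468, 3121 and 1470.3 CPM. Without Pcp4 the other 9 summed to 1570.0, 1415, 1739 and 1356 CPM. The calcium channel gene Cacna1d, at 236, 53.3, 39.1 and 216 CPM, and Ednra, at 213, 28.4, 67.6 and 177 CPM, were lower in both doxorubicin libraries, and the endothelin receptor gene Ednrb, at 12.5, 53.3, 32 and 10.8 CPM, was higher.

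In pericyte-like cells most contractile genes were lower in both AMH libraries. Pericytes wrap capillaries and small vessels and carry part of the same apparatus. For 23 of the 32 members that passed, both AMH libraries lay below both others, beside 24.5% of genes. In AMH against control 27 of 32 were below, beside 59.3% of genes, with a median log2 ratio of -0.33 (-0.54 to -0.080). In doxorubicin+AMH against doxorubicin 31 of 32 were below, beside 52.3%, with a median of -0.50 (-0.75 to -0.29). The medians of all genes were -0.079 and -0.024. Srf and Kcnmb1 did not pass the 20 CPM minimum here.

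Myosin and its partners were among the lower genes. Myh11 was at 0.619 (0.564 to 0.679) times its control level in AMH and 0.507 (0.453 to 0.566) times its doxorubicin level in doxorubicin+AMH. Acta2 was at 0.744 (0.704 to 0.785) and 0.644 (0.605 to 0.687), Lmod1 at 0.613 (0.483 to 0.773) and 0.574 (0.448 to 0.73), and Tagln at 0.693 (0.647 to 0.742) and 0.666 (0.621 to 0.714). Of the members above the minimum, the 5 above the control with AMH were Actg2, at 1.18, Cnn1, at 1.47, Cnn2, at 1.04, Myocd, at 1.07, and Synm, at 1.02. The doxorubicin+AMH library was the lowest for 23 of 32 members, beside 25.3% of genes. Synm was at least 2-fold lower in doxorubicin+AMH against doxorubicin, beside 1.64% of genes, and Actg2 2-fold higher, beside 1.69%. Pln, phospholamban, which restrains the calcium pump of the internal store, was also lower with AMH, at 109, 113, 40.7 and 35.9 CPM.

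Doxorubicin moved the pericyte-like medians less. The median was -0.068 (-0.27 to 0.21) against control and -0.19 (-0.51 to 0.070) for doxorubicin+AMH against AMH, with 19 and 24 of 32 members below, beside 52.2% and 46.5% of genes. Actg2 was at 0.198 (0.102 to 0.356) in the first and 0.455 (0.281 to 0.719) in the second comparison. It was the only member 2-fold lower in the first, beside 1.42% of genes. Actg2, Cnn1, Dmd and Synm were 2-fold lower in the second, beside 1.47%. Dmd was at 0.628 (0.576 to 0.685) and 0.479 (0.427 to 0.538). Both doxorubicin libraries lay below both others for dystrophin in pericyte-like cells and in the Pcp4 cluster, as in the Ednrb cluster. The members below in this way, Dmd among them, were 7 of 32 in pericyte-like cells, beside 17.7% of genes. They were 3 of 33 in the Pcp4 cluster, beside 27%, and 1 of 33 in the Ednrb cluster, beside 15%. These counts were near or under the shares of all genes.

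The makeup of the pericyte-like cluster also differed between libraries, over 118, 81, 70 and 78 cells. Pericyte markers summed to 5406, 6015, 4413 and 3469 CPM, and 10 of 10 were lower in both AMH comparisons. Stroma markers summed to 1286, 803, 1872 and 1932 CPM and granulosa markers to 280.2, 241, 762 and 622 CPM, higher in the AMH libraries. Erythroid markers summed to 29.1, 1258, 18.2 and 17.3 CPM. When cells were gated one by one on their markers, the AMH to control median changed sign to 0.13. The part of these shifts in the lower contractile levels was not tested.

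In theca-like cells, the steroid-producing layer around follicles, fewer contractile genes were above the minimum, and Vim and Myl9 stood higher with AMH. Of the 34 genes, 19 passed, and Actg2, Myh11, Tagln, Cnn1 and Des were among the 15 that did not, with Myh11 at 3.24 to 8.83 CPM. Of the 19, Mylk, Cnn2 and Csrp1 were under 20 CPM in both libraries without AMH and passed only through the AMH libraries, so no count or median over the 19 is read as a result, and the levels of these 3 are a description. Vim was at 132 CPM in the control library, 174 in the doxorubicin, 525 in the doxorubicin+AMH and 539.9 in the AMH library. Myl9 was at 71, 71, 194 and 216 CPM, Mylk at 18.6, 15.7, 67.5 and 65.7 CPM and Csrp1 at 11, 11.6, 34 and 34.1 CPM. Ppp1r14a, the phosphatase inhibitor, ran the other way at 81.5, 108, 48.8 and 42.6 CPM.

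In AMH against control the fold was 4.1 (3.94 to 4.26) for Vim and 3.04 (2.87 to 3.22) for Myl9. Vim and Myl9, above 20 CPM in every library, were thus at least 2-fold higher, beside 2.22% of genes. In doxorubicin+AMH against doxorubicin the folds were 3.01 (2.89 to 3.13) and 2.73 (2.56 to 2.91). Vim and Myl9 were again 2-fold higher, and so was Acta2, at 2.7 (2.38 to 3.08), which was under 20 CPM in the doxorubicin library and stood at 1.38 (1.24 to 1.54) in AMH against control. These calls stand beside 2.2% of genes. The theca-like levels of Acta2 overlapped the T or NK lymphocyte-like range given above as background, so the call on Acta2 is not read as a result. Ppp1r14a was 2-fold lower, beside 2.89%. Over all 34 genes, with no minimum, the median log2 ratios were 0.21 and 0.43 in these comparisons, and the medians for doxorubicin were -0.030 without AMH and 0.013 with it. Immediate early genes were higher in the AMH libraries of this class. The 16 genes summed to 9990.4, 10890.1, 13845 and 13560.5 CPM, and 16 of 16 were above the control with AMH and 15 of 16 above doxorubicin with both, beside 40.3% and 44.2% of all genes. Their part in the values of Vim and Myl9 was not tested.

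The theca-like class was not the same mixture in each library. It held 3 clusters: the one led by Prss35 had 32, 34, 575 and 762 cells, the one led by Cyp17a1 had 679, 434, 49 and 31, and the one led by Sct had 127, 120, 121 and 121. Theca markers summed to 14882, 14277, 5769 and 4776 CPM and stroma markers to 502, 544, 932 and 915 CPM. Within the Cyp17a1 cluster Vim was at 2.21 times its control level with AMH and at 1.46 times its doxorubicin level with both. Myl9 was at 2.43 and 2.58 there, and Mylk at 3.33 and 2.26. Within the Prss35 cluster Vim was at 2.45 and 1.25 and Myl9 at 4.87 and 1.54, but Mylk at 1.01 and 0.979. Within the Sct cluster Vim was at 1.13 and 1.27 and Myl9 at 1.22 and 1.1. Ppp1r14a was at 0.938 and 0.933 in the Cyp17a1 cluster and at 0.467 and 0.255 in the Prss35 cluster. The folds over the whole class therefore exceeded most of those inside a cluster, and the median over members was -0.064 in the Sct cluster for the first comparison and -0.29 in the Prss35 cluster for the second. The part of this mixture in the class values was not tested further.

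**Figure D5:**
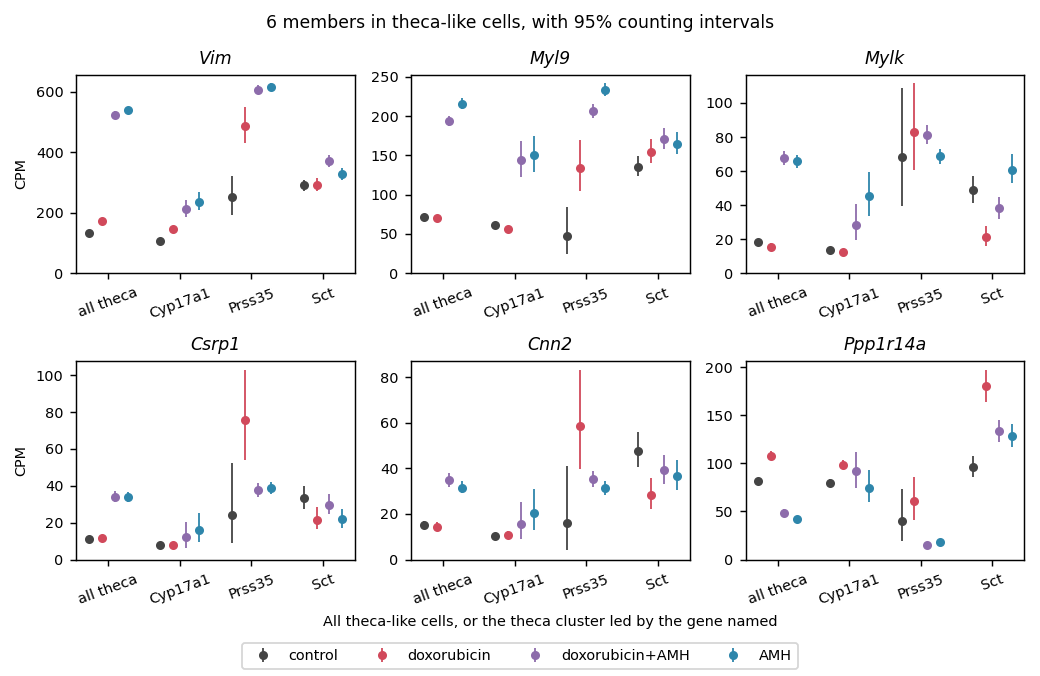
Levels (CPM, linear axis from 0) of Vim, Myl9, Mylk, Csrp1, Cnn2 and Ppp1r14a in the 4 libraries, for theca-like cells together and for each of the 3 theca-like clusters, with 95% counting intervals. Vim and Myl9 are higher in the AMH libraries over all theca-like cells, and the size of the difference depends on the cluster.

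In stroma-like cells, the connective tissue of the ovary, no member differed by 2-fold in any comparison of treatments over the class as a whole. Of all genes, 0.0756% were 2-fold higher and 0% lower in doxorubicin against control, and 0% and 0.121% in doxorubicin+AMH against AMH. The shares were 0.121% and 0.0605% in AMH against control, and 0.0454% and 0.212% in doxorubicin+AMH against doxorubicin. Of the 34 genes 27 passed, and the median log2 ratios were -0.0088 for doxorubicin against control, 0.090 for doxorubicin+AMH against AMH, -0.086 for AMH against control and -0.0088 for doxorubicin+AMH against doxorubicin. Acta2 was at 466, 412, 663 and 533 CPM and Tagln at 279, 265, 395 and 359 CPM. Myh11 was at 44.1, 46.8, 66.3 and 66.5 CPM, higher in both AMH libraries at 1.51 (1.4 to 1.63) and 1.42 (1.31 to 1.53). Acta2, Myh11, Myl9, Tagln, Synm, Dmd and Fbxl22 were higher in both AMH libraries than in both others, 7 of 27 beside 13.6% of genes. For 12 of 27, among them Cald1, Cacna1c, Vcl and Ppp1r14a, both were lower, beside 41.2%, so this count was near the share of all genes. One of these 12, Des, passed the minimum only through the libraries without AMH. Cald1 was at 0.782 (0.765 to 0.799) and 0.835 (0.818 to 0.853). Gucy1b1, at 60, 63.4, 35.3 and 35.1 CPM, was lower with AMH here too.

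The class held 4 clusters, and only the one led by Clec3b, with 296, 198, 135 and 266 cells, had members that differed by 2-fold. Acta2 was at 175, 91, 494 and 251 CPM there, so that it was highest in doxorubicin+AMH and lowest in doxorubicin. Synpo2 was at 38.5, 20.5, 141 and 63 CPM, Myh11 at 26.8, 20.2, 67.8 and 67.6 CPM and Dmd at 149, 71.1, 157 and 208 CPM. In doxorubicin+AMH against doxorubicin, Acta2 was at 5.43 (4.74 to 6.24), Synpo2 at 6.85 (5.17 to 9.17), Myh11 at 3.35 (2.43 to 4.64), Dmd at 2.2 (1.83 to 2.65) and Myl9 at 2.14 (1.81 to 2.53). These 5 of 25 members that passed were 2-fold higher, beside 2.5% of genes, and the member median was 0.37 (0.15 to 0.54), against 0.042 for all genes. Myh11 was also 2-fold higher in AMH against control, at 2.52 (1.98 to 3.25), beside 0.126% of genes. Synpo2 was higher in doxorubicin+AMH against AMH, at 2.23 (1.83 to 2.73), beside 0.964%, and Dmd lower in doxorubicin against control, at 0.478 (0.408 to 0.56), beside 1.82%. The 10 muscle markers outside the list summed to 194, 167, 253 and 207 CPM in this cluster, stroma markers to 23716, 21148, 16313 and 19587 CPM and the Müllerian Hox genes to 106, 50.3, 283 and 102 CPM. Pericyte markers summed to 149, 85.7, 133 and 143 CPM and blood endothelial markers to 85.5, 37.3, 71.6 and 64.3 CPM, both lowest in doxorubicin. The part of these shifts in the differences was not tested.

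Set side by side, the AMH comparisons of Myh11 differed between classes. The fold against control was 0.735 in the Ednrb cluster, 1.01 in the Pcp4 cluster, 0.619 in pericyte-like and 1.51 in stroma-like cells. The folds of doxorubicin+AMH against doxorubicin were 0.968, 1.26, 0.507 and 1.42. For Acta2 the same folds against control were 0.857, 1.04, 0.744 and 1.14. The difference between classes was not tested, since each rests on the same 4 libraries.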

How the data were processed

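Each library was deposited as a matrix of UMI counts per gene and cell barcode, not normalized. The writing software, per the file headers, was Cell Ranger 7.0.0, after a 10x 3′ kit, and mm10, R 4.2.0 and Seurat 4.1.0 are named in the submitters' processing notes. The annotation, intron counting and the strand used for counting are not given in the sources used here.

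Barcodes were kept from 1000 UMIs upward and up to 20% mitochondrial UMIs, and the highest Scrublet scores were removed at 0.8% per 1000 cells (scanpy 1.11.5). All libraries were clustered together on 2000 variable genes, without the 34 genes and the other fixed lists (30 components, 20 neighbours, Leiden resolution 1), with no batch correction. A cluster was named when at least 3 and 60% of a marker list stood 1 log2 unit over the median cluster in at least 10% of its cells. A cluster with 90% of its cells from 1 library stayed unnamed. These thresholds were chosen after values were seen. UMIs were summed per class and library and divided by the class total. Intervals are exact Poisson for levels, conditional binomial for folds and Clopper-Pearson for shares. Folds use no pseudocount, and log2 ratios use 5 CPM, for genes averaging 20 CPM or more. The ratio step was tested on simulated data. The members, lists and markers were chosen with earlier results of these data known. Every member is accounted for. Of the other lists, the 2 lowest or highest genes by the ratio nearer 0 of the comparisons that share no library were named, and some of these are given. Loci come from GENCODE M21 on GRCm38.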

Additional observations from a re-analysis of the deposited data

Results flagged for a closer look

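In the Ednrb cluster the median log2 ratio of the contractile genes with doxorubicin had opposite signs without and with AMH. It was -0.077 for doxorubicin against control and 0.15 for doxorubicin+AMH against AMH, and the difference between these was not tested, since each group is 1 library.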

How the results depend on the processing

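Of 164 member medians recomputed under an alternative, 141 had the sign of the reported value, and 131 stayed inside the median limits of its members. Of the rest, 29 left these limits, and 4 changed sign from a value whose median limits excluded 0. The cause was not tested. For smooth muscle-like cells together, doxorubicin against control went from -0.15 to -0.059 under a gate on each cell's markers, -0.077 without the Pcp4 cluster, left out for its higher Müllerian Hox sum over the libraries (167 against 114 CPM, but 64.0 against 118 in the doxorubicin library), and 0.14 in the Pcp4 cluster alone. Doxorubicin+AMH against AMH went from 0.053 to 0.15 without it and 0.41 in it. AMH against control went from -0.26 to -0.21 with median-of-ratios scaling, -0.19 with the gate and -0.070 in the Pcp4 cluster. Doxorubicin+AMH against doxorubicin went from 0.0017 to 0.060 with each cell weighted equally and 0.31 in the Pcp4 cluster. In pericyte-like cells AMH against control went from -0.33 to 0.13 with the gate. The theca-like medians, 48 of the 164 values, start from 19 members, 3 of which passed only through the AMH libraries. They are listed for this check and not read as results. In theca-like cells, doxorubicin against control went from -0.0015 to 0.10 with equal weights, 0.56 in the Prss35 and -0.22 in the Sct cluster, and doxorubicin+AMH against AMH from 0.035 to -0.059 in the Cyp17a1 cluster. AMH against control went from 0.41 to 0.21 without the filter, 0.29 with the gate, 0.14 in the Prss35, 0.18 in the Cyp17a1 and -0.064 in the Sct cluster. Doxorubicin+AMH against doxorubicin went from 0.65 to 0.54 at 10% mitochondrial UMIs, 0.43 without the filter, 0.50 with the gate, -0.29 in the Prss35 and 0.20 in both other clusters. In stroma-like cells, doxorubicin against control went from -0.0088 to -0.060 with doublets kept and -0.12 with the gate, and AMH against control from -0.086 to -0.0036 with median-of-ratios scaling. Doxorubicin+AMH against doxorubicin went from -0.0088 to 0.11 at 10% mitochondrial UMIs, 0.12 with doublets kept, 0.11 without the filter and 0.12 with the gate. The share of muscle cells went from 11.2%, 8.74%, 11.3% and 10.9% to 3.19%, 1.72%, 2.18% and 2.48% with the gate, and at resolution 2 to 10.3% in the doxorubicin+AMH and 9.46% in the AMH library. The share of Ednrb cluster cells with a Myocd UMI was 71.6%, 70.4%, 73.3% and 61.2% without thinning. The single cluster alternatives were chosen after seeing the data.

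No paired analysis was possible because each group is 1 library. Animals were pooled, so the intervals cover counting error only and treatment, dissection and preparation cannot be told apart. The Pcp4 cluster's 18 cells in the doxorubicin library and the 70 to 118 pericyte-like cells per library limit the values of those classes. Smooth muscle-like cells were not separated from stroma by the gate, which assigned most of the Ednrb cluster to stroma.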

Other observations

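Immediate early genes, which cells switch on within minutes of stress or dissociation, differed little between libraries in the Ednrb cluster, where the 16 genes summed to 12526, 12251, 12047 and 11983 CPM. In the smaller Pcp4 cluster they summed to 8445, 5841, 6438 and 6168 CPM, and all 14 that passed were below the control in both the doxorubicin and the AMH library, beside 52.7% and 54.3% of all genes. In pericyte-like cells they summed to 13139, 11149.7, 13167 and 14979 CPM, and all 16 were above the control in the AMH library, beside 40.7% of all genes, at a median log2 ratio of 0.16.

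Myocd was present in granulosa-like cells, where 18 of the 34 members averaged 20 CPM or more, and its level differed between their clusters. It was at 73.6, 78.5, 108 and 99.9 CPM in the cluster led by Shroom3, and at 87, 75.7, 112 and 109 CPM in the one led by Slc38a5. In the cluster led by Inhba it was at 14.3, 19.6, 26.4 and 26.2 CPM. Over all granulosa-like cells Myh11 was at 4.01 to 6.74 CPM, Cnn1 at 1.06 to 2.35 CPM and Acta2 at 34.4 to 46.7 CPM.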
